A study of Mus musculus with 4 samples.

Results

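The MAP kinase phosphatases described here are 8 genes of the dual-specificity phosphatase (DUSP) family, Dusp1, Dusp2, Dusp4, Dusp5, Dusp6, Dusp7, Dusp10 and Dusp16. They were found by symbol among the 56793 gene rows of the deposited expression table, and all 8 were present. RNA was measured in 4 libraries from bone marrow cells labelled as megakaryocytes, the cells that release platelets, and isolated by flow cytometry from mice. Of these, 2 libraries came from young and 2 from old animals, and the genotype of every sample is labelled Blc6, with no other allele or treatment named. Ages, the sorting gate and how many animals went into a library are not in the labels, so the spread between the 2 libraries of a group, called the young pair and the old pair below, may be technical. The study's title concerns the ageing of blood stem cells, and the comparison of old with young is the only comparison the labels allow.

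MAP kinases (ERK, JNK and p38) are switched on when an upstream kinase phosphorylates a threonine and a tyrosine in their activation loop. The MAP kinase phosphatases remove both phosphates, and many of their genes are themselves transcribed in response to MAP kinase signalling, which closes a negative feedback loop. In megakaryocytes, ERK is activated downstream of the thrombopoietin receptor, and in myeloid cells DUSP1 is known for limiting p38 signalling and cytokine production. By location and substrate, DUSP1, DUSP2, DUSP4 and DUSP5 are nuclear, DUSP6 and DUSP7 are cytoplasmic and prefer ERK, and DUSP10 and DUSP16 prefer JNK and p38.

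The promoters of 4 of the genes are shown because 3 of them, Dusp1, Dusp5 and Dusp6, had the largest differences towards higher values in old libraries on the log2(TPM + 1) scale, and Dusp7 is a member that was lower in them. Each sequence is the 250 bases before the start site, 5′ to 3′ on the gene's strand, from RefSeq on GRCm38.p6. Capitals mark matches, on either strand, to TGACG, the core of the cAMP response element, or to the CArG box, the site bound by serum response factor. The windows are chr17:26508473-26508722 on the minus strand for Dusp1, and chr19:53528895-53529144, chr10:99262981-99263230 and chr9:106368382-106368631 on the plus strand for Dusp5, Dusp6 and Dusp7.
Dusp1: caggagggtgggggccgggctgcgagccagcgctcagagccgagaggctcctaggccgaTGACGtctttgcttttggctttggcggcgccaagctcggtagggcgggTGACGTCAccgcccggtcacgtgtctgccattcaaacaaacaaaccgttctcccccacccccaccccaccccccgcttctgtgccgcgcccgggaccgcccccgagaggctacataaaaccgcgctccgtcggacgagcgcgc
Dusp5: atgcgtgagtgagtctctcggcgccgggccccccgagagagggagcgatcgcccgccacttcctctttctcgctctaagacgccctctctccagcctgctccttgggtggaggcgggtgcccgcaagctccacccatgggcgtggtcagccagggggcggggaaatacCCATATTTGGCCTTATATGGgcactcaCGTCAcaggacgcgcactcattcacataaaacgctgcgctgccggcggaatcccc
Dusp6: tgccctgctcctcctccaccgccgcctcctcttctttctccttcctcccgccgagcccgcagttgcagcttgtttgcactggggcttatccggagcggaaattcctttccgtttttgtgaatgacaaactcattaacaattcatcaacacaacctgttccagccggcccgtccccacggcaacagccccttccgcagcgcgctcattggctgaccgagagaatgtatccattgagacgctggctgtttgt
Dusp7: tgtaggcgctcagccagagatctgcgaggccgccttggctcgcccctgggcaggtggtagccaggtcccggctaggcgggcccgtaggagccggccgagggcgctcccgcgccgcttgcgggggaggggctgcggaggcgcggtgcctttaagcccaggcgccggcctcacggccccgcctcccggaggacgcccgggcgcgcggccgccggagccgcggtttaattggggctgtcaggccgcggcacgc

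Expression values are in TPM, which allow for the length of each transcript and sum to 1000000 in every library, so levels can be compared between genes. Because TPM keeps no sequencing depth, the depth behind each value is unknown and no counting interval is given. All 8 genes passed the minimum of a mean of 1 TPM over the 4 libraries, which kept 16073 genes. The members were selected on family membership with their old and young TPM values already in view, so these values are described with no p-value of their own, and calls from a fit over all genes are given below only as counts, as a description.

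Among the nuclear phosphatases, Dusp5 differed most between the groups. Dusp5, which encodes an ERK-specific nuclear phosphatase, was at 16.1 and 16.3 TPM in the young pair and at 49.6 and 42.2 TPM in the old pair. Both old libraries were above both young ones, and the gap between the groups was much wider than the gap within either. The mean was 16.2 ± 0.200 TPM in young and 45.9 ± 5.22 TPM in old samples (SD, n = 2 each), a ratio of 2.83. On the log2(TPM + 1) scale the difference was 1.44 (SE 0.10), which ranked 307 among the 16073 tested genes ordered from the largest rise.

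Dusp1 encodes the broadly acting nuclear phosphatase that is induced as an immediate early gene. Dusp1 was at 323 and 297 TPM in the young pair and at 428 and 439.9 TPM in the old pair. The groups did not overlap, and the old libraries lay close together. The mean was 310 ± 18.2 TPM in young and 434 ± 8.60 TPM in old samples (SD, n = 2 each), a ratio of 1.40 and a difference of 0.49 (SE 0.07) in log2(TPM + 1). By mean level Dusp1 ranked 388 among the tested genes in young and 278 in old samples, so it was an abundant transcript in both groups.

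Dusp2, which encodes a nuclear phosphatase known from activated leukocytes, was at 25.1 and 24.1 TPM in the young pair and 26.2 and 24.6 TPM in the old pair. These groups overlapped, with a difference of 0.05 (SE 0.08) in log2(TPM + 1). Dusp4, which encodes the closest relative of DUSP1 in the nucleus, was the lowest member, at 1.75 and 2.23 TPM in the young pair and 2.30 and 2.85 TPM in the old pair. Both old values were above both young ones, but the gap between the groups, 0.03 in log2(TPM + 1), was smaller than the gaps of 0.23 and 0.22 within them.

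The cytoplasmic ERK phosphatases differed in opposite directions. Dusp6 was at 65.0 and 61.3 TPM in the young pair and at 83.6 and 77.6 TPM in the old pair. The mean was 63.1 ± 2.66 TPM in young and 80.6 ± 4.20 TPM in old samples (SD, n = 2 each), a ratio of 1.28 and a difference of 0.35 (SE 0.07) in log2(TPM + 1). Both old libraries were above both young ones. Dusp7, which encodes the cytoplasmic relative of DUSP6, was at 27.7 and 28.7 TPM in the young pair and at 20.0 and 20.6 TPM in the old pair. Here both old libraries were below both young ones, and the libraries of each group lay close together. The mean was 28.2 ± 0.728 TPM in young and 20.3 ± 0.439 TPM in old samples (SD, n = 2 each), a ratio of 0.720 and a difference of -0.45 (SE 0.07) in log2(TPM + 1).

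The phosphatases that prefer JNK and p38 were low in both groups. Dusp10 was at 4.81 and 5.24 TPM in the young pair and at 3.40 and 3.71 TPM in the old pair, without overlap. Its ratio of old to young was 0.708 and its difference -0.40 (SE 0.13) in log2(TPM + 1). Dusp16 was at 5.63 and 4.38 TPM in the young pair and 5.25 and 4.51 TPM in the old pair, and the old values lay within the young range. Its difference was -0.03 (SE 0.16). Dusp1, Dusp5, Dusp10 and Dusp16 overlap annotated genes on the opposite strand, so their values are uncertain to the extent that reads of such genes were counted with them.

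**Figure D1:**
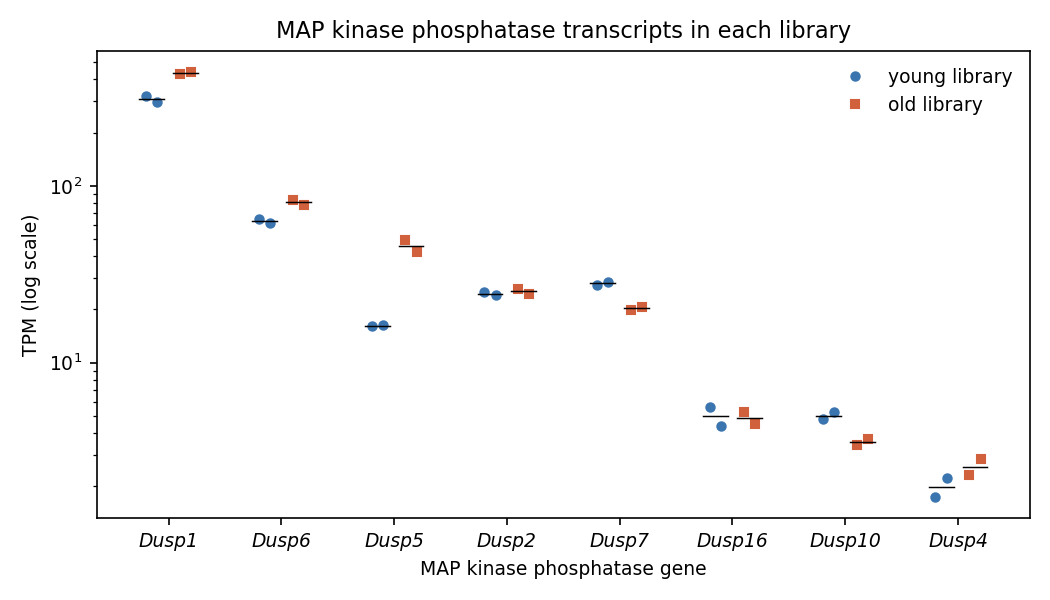
TPM (log axis) of the 8 DUSP genes, ordered by mean level, in the 2 young (circles) and 2 old (squares) libraries, with lines at the group means. Old libraries lie above young ones for Dusp1, Dusp4, Dusp5 and Dusp6 and below them for Dusp7 and Dusp10, and the groups overlap for Dusp2 and Dusp16.

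Old libraries were thus above young ones for 4 members and below them for 2, while 2 overlapped. Among all tested genes, 67.9% did not overlap between the groups, 21.8% with both old libraries above both young ones and 46.1% with both below. In a fit over all genes with limma, 3 of the 8 members (Dusp1, Dusp5 and Dusp6) passed an adjusted p threshold of 0.05 as higher in old and 1 (Dusp7) as lower, beside 5.20% and 14.7% of all tested genes, or 19.9% in either direction. Since the members were chosen with this comparison known, nothing is read from these counts. The median difference of the members was 0.15 in log2(TPM + 1), and that of all tested genes was -0.10. The call counts rest on both young libraries: without young replicate 1, or without young replicate 2, Dusp5 alone was called and 0 members were called lower. Without old replicate 1, Dusp6 was not called. In the authors' deposited table of changed genes, Dusp5 was the only member listed, with a log2 fold change of 1.46 (SE 0.19). Of the tested genes, 7.67% are listed in the authors' deposited table, 3.16% as higher in old.

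The order of levels within the family changed between the groups. In young samples it ran, from the highest mean, Dusp1, Dusp6, Dusp7, Dusp2, Dusp5, Dusp10, Dusp16 and Dusp4. In old samples it ran Dusp1, Dusp6, Dusp5, Dusp2, Dusp7, Dusp16, Dusp10 and Dusp4. Within a group, the neighbours whose libraries overlapped were Dusp10 and Dusp16 in young samples, and no other neighbours overlapped in either group. Dusp5 and Dusp7 thus exchanged places around Dusp2, which lay between them in both groups.

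Shares and ratios among the members do not change when a whole library is multiplied by a single factor, but their sum does. The 8 genes summed to 469 and 439 TPM in the young pair and 618 and 616 TPM in the old pair. Dusp1 made up 68.8% and 67.6% of that sum in the young and 69.2% and 71.4% in the old pair, so most of the summed signal was Dusp1 in every library. Dusp5 made up 3.43% and 3.72% in the young pair and 8.03% and 6.85% in the old pair. The share of Dusp7 was 5.90% and 6.53% in the young pair and 3.23% and 3.34% in the old pair, lower in both old libraries. A share also falls when other members rise. That of Dusp2, whose TPM overlapped between the groups, was 5.35% and 5.48% in the young pair and 4.24% and 3.99% in the old pair. The ratio of Dusp5 to Dusp7 TPM was 0.581 and 0.570 in the young pair and 2.48 and 2.05 in the old pair, so Dusp7 was the more abundant of the pair in both young libraries and Dusp5 in both old ones. Between the cytoplasmic pair, the ratio of Dusp6 to Dusp7 was 2.35 and 2.14 in the young pair and 4.18 and 3.77 in the old pair. The ratio of Dusp1 to Dusp6 changed less, from 4.96 and 4.84 to 5.12 and 5.67.

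TPM has a fixed total, and immunoglobulin genes took 1.03% and 0.896% of it in the young and 13.3% and 13.1% in the old pair, which lowers every other gene in the old libraries. Removing these genes and rescaling moved the median difference of all tested genes from -0.10 to 0.07, and median-ratio scaling moved it to -0.05. Across these scalings and quantile normalization, the differences ran from 1.44 to 1.63 for Dusp5, from 0.48 to 0.68 for Dusp1 and from 0.35 to 0.54 for Dusp6. Dusp7 ran from -0.45 to -0.27 and was no longer called with immunoglobulin genes removed, and Dusp10 ran from -0.48 to -0.25. Dusp4 stayed above 0, from 0.11 to 0.40, and Dusp2 ran from 0.05 to 0.23. The sign of Dusp16 turned, from -0.08 with quantile normalization to 0.13 with immunoglobulin genes removed. The split of all called genes moved with the scaling from 835 higher and 2369 lower to 953 and 900 with median-ratio scaling, 902 and 1289 with quantile normalization and 1295 and 508 with immunoglobulin genes removed.

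**Figure D2:**
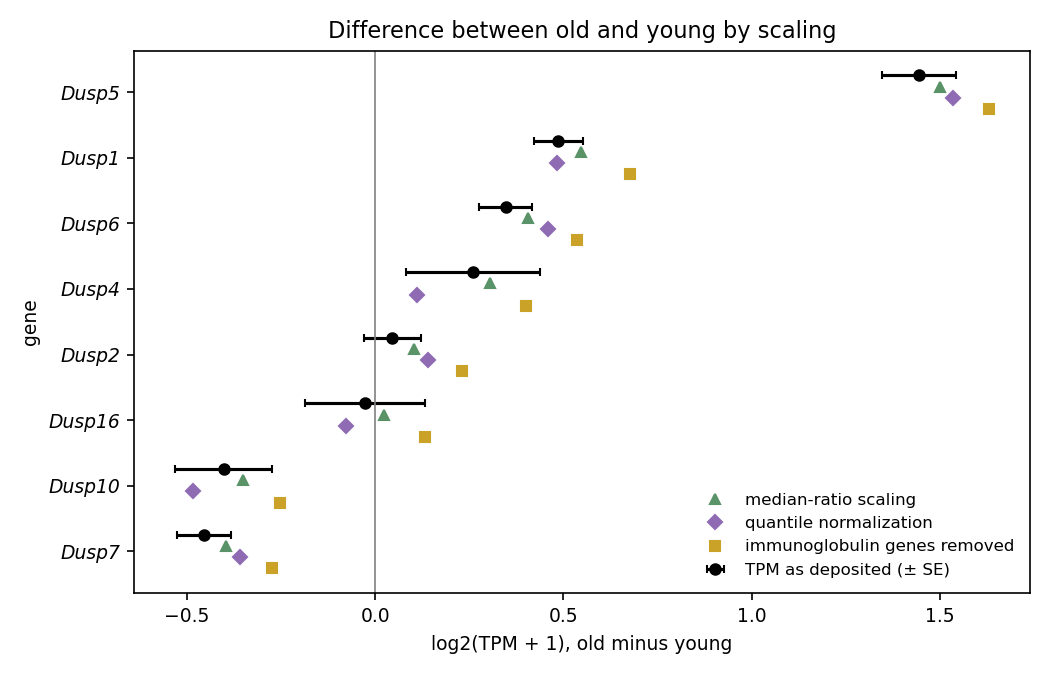
Difference between old and young in log2(TPM + 1) for each DUSP gene, as deposited (black circles with SE) and under 3 other scalings between libraries (coloured symbols). Dusp5, Dusp1, Dusp6, Dusp4 and Dusp2 lie above 0 and Dusp10 and Dusp7 below 0 under every scaling shown, and Dusp16 lies on both sides.

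These libraries hold RNA of several cell types, and in such bulk samples fewer cells of a type and less RNA per cell cannot be told apart. All 12 megakaryocyte and platelet markers were above 0 in every library, and their summed level was 1644 and 2163 TPM in the young pair and 918 and 1362 TPM in the old pair, with 0 called higher and 1 lower. The 13 neutrophil markers, all above 0, had a summed level of 145000 and 138900 TPM in the young pair and 124000 and 123300 TPM in the old pair, far above the megakaryocyte sum, with 1 called higher and 1 lower. The 9 plasma cell markers rose from 2851 and 2622 to 40610 and 41060 TPM, and 9 of 9 were called higher. The 8 erythroid markers had summed levels of 7583 and 7577 TPM in the young pair and 2257 and 2709 TPM in the old pair, and 8 of 8 were called lower. The 8 B cell markers went from 477 and 428 to 271 and 258 TPM, with 7 called lower. The 9 monocyte and macrophage markers went from 1909 and 1821 to 1300 and 1410 TPM, with 6 called lower, and the 8 T and NK markers were at 145 and 157 TPM in the young pair and 140.1 and 163 TPM in the old pair, with 1 called lower. No listed marker was at 0 in all libraries. The part of these cell types in the DUSP differences was not tested.

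Genes acting around the phosphatases were taken from lists by role. The lists were chosen with earlier results of these data known, so their counts and p-values are given as a description. Of 18 other dual-specificity phosphatases 11 were tested and 0 passed the threshold in limma, and 1 had an unadjusted p under 0.05. Their median difference was -0.17 in log2(TPM + 1). The most abundant were Dusp11, which acts on RNA, with means of 54.4 TPM in young and 48.2 TPM in old samples (limma adjusted p = 0.170), and Dusp3, a small phosphatase of ERK and JNK, with means of 22.5 TPM and 16.5 TPM (limma adjusted p = 0.0584). The sign of Dusp11 turned with the scaling, from -0.17 with TPM as deposited to 0.012 once immunoglobulin genes were taken out. The remaining classical MAP kinase phosphatases were near the minimum, Dusp8 at 1.67 and 1.25 TPM in the young pair and 0.966 and 0.638 TPM in the old pair, and Dusp9 at 1.12 and 1.16 TPM and 1.21 and 1.45 TPM.

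Of 34 MAP kinases and upstream kinases 33 were tested, of which 1 rose and 4 fell, beside 5.20% and 14.7% of all tested genes. The median difference of the list was -0.12, beside -0.10 over all tested genes. Mapk3, which encodes an ERK, fell from 303 ± 8.23 to 255 ± 2.23 TPM (SD, n = 2 each), a difference of -0.24 (SE 0.05, limma adjusted p = 0.0407). Map2k1, a kinase that activates ERK, fell from 103 to 84.2 TPM (limma adjusted p = 0.0342). Mapkapk2, a kinase activated by p38, fell from 249.9 to 209.8 TPM (limma adjusted p = 0.0403). With immunoglobulin genes removed and with median-ratio scaling, 0 of these 33 genes were called lower and 4 were called higher, so the 4 falls depended on the scaling. Mapk12, a p38 isoform, rose from 1.22 and 1.72 TPM to 4.06 and 3.56 TPM, a difference of 0.97 (SE 0.18, limma adjusted p = 0.0282). Without young replicate 1, or without young replicate 2, none of the 33 genes was called. Map2k1 was not called without old replicate 2, Mapkapk2 not without old replicate 1, and Mapk3 and Mapk12 not without either. Araf, which encodes a kinase at the top of the ERK cascade, did not pass here but is listed in the authors' deposited table with a log2 fold change of 0.28 (SE 0.12).

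Set against transcripts of MAP kinases, the ERK phosphatases differed from one another. The ratio of Dusp6 to Mapk3 TPM was 0.211 and 0.207 in the young pair and 0.326 and 0.306 in the old pair. The ratio of Dusp5 to Mapk3 was 0.0521 and 0.0551 in the young pair and 0.193 and 0.167 in the old pair. For Dusp7 the ratio to Mapk3 was 0.0897 and 0.0967 in the young pair and 0.0778 and 0.0812 in the old pair, so Dusp7 was lower in old samples also relative to Mapk3. The ratio of Dusp1 to Mapk14, which encodes the main p38 kinase, was 1.47 and 1.35 in the young pair and 1.93 and 2.14 in the old pair. In all 4 of these ratios, chosen after values were seen, the old and young libraries did not overlap. Taken singly, 67.9% of all tested genes did not overlap either, so nothing is read from this count.

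Of 24 other feedback inhibitors and MAP kinase phosphatases 21 were tested, of which 1 rose and 2 fell, beside 5.20% and 14.7% of all tested genes, with a median difference of -0.16. Gadd45a, a stress-induced gene whose product acts on p38 and on JNK signalling, rose from 110 and 105 TPM to 146 and 136 TPM, a difference of 0.39 (SE 0.06, limma adjusted p = 0.0245). Dok2, an adaptor that restrains RAS signalling, fell from 52.1 to 39.8 TPM (limma adjusted p = 0.0457). Ppp2ca, the catalytic subunit of a phosphatase that also acts on ERK, fell from 65.3 to 53.4 TPM (limma adjusted p = 0.0349). Neither fall was called under median-ratio scaling or after immunoglobulin genes were removed, and Gadd45a was called in both. Without young replicate 1, or without young replicate 2, none of the 21 genes was called, and without old replicate 1 the fall of Dok2 was not called (limma adjusted p = 0.0779). The fall of Ppp2ca was not called without old replicate 1 (limma adjusted p = 0.0585) or without old replicate 2 (limma adjusted p = 0.0541). Spry2, which encodes a Sprouty inhibitor of the RAS to ERK pathway, was at 10.1 and 11.1 TPM in the young pair. It was at 11.1 and 9.48 TPM in the old pair, with overlapping groups. Spry1, of the same family, was at 5.03 and 5.35 TPM in the young pair and 3.49 and 4.71 TPM in the old pair. Its old values were both below its young ones, but it was not called (limma adjusted p = 0.249).

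Of 17 ERK-regulated genes and ERK-responsive transcription factors 14 were tested, of which 3 rose and 0 fell, beside 5.20% and 14.7% of all tested genes, with a median difference of -0.01. Ets2, a transcription factor phosphorylated by ERK, rose from 23.9 and 26.3 TPM to 81.2 and 60.5 TPM, a difference of 1.45 (SE 0.15, limma adjusted p = 0.0124). Ier3, an immediate early gene, rose from 39.3 and 39.2 TPM to 63.6 and 62.7 TPM, a difference of 0.67 (SE 0.06, limma adjusted p = 0.00922). Fosl1, an AP-1 subunit, rose from 0.374 and 1.16 TPM to 3.78 and 2.43 TPM (limma adjusted p = 0.0483), a call not kept with median-ratio scaling (adjusted p = 0.0526). Its mean of 0.765 TPM in young samples is below the minimum of 1 TPM, so Fosl1 was tested only through its old values. Ets2 remained called without each library in turn, while the limma adjusted p of Ier3 was 0.0576 with young replicate 1 left out and 0.0534 with young replicate 2 left out, and Fosl1 was not called without any of the 4 libraries. In the authors' deposited table Ets2 has a log2 fold change of 1.48 (SE 0.15) and Ier3 of 0.41 (SE 0.20). The remaining 11 genes, Myc, Etv5, Ccnd1 and Phlda1 among them, did not pass, and Myc was at 50.0 and 58.6 TPM in the young pair and 51.5 and 53.2 TPM in the old pair.

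**Figure D3:**
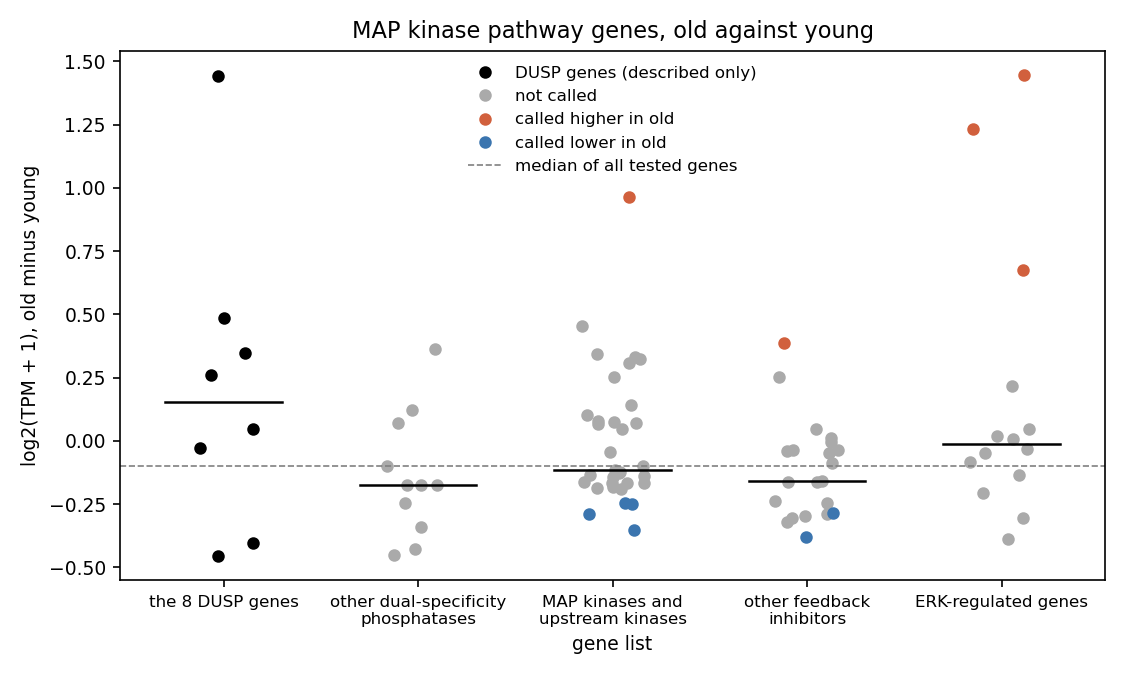
Difference between old and young in log2(TPM + 1) for every tested gene of the DUSP set and of 4 lists of MAP kinase pathway genes, with the DUSP genes in black and the others coloured by whether limma called them at an adjusted p under 0.05, and with a black line at each list's median and a dashed line at the median of all tested genes, -0.10. The DUSP genes run from -0.45 to 1.44, the called rises of the lists reach 1.45 among the ERK-regulated genes, and the called falls of the lists lie between -0.38 and -0.24.

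By pattern over the 4 libraries, the genes nearest to Dusp1 and Dusp6 were sought among 9279 other genes whose mean was 10 TPM or more, by the root mean square distance of centred log2(TPM + 1) values. Nearest to Dusp1 were Pla2g7, Gm43126, Spatc1, St6gal1 and Gcnt2, at distances of 0.02 to 0.04. Pla2g7, which encodes an enzyme that degrades platelet-activating factor, was at 149 and 140.2 TPM in the young pair and 201 and 201 TPM in the old pair. Nearest to Dusp6 were Gadd45a, E230016M11Rik, Pim3, Wdr45 and Galnt6os, at distances of 0.02 to 0.03. Pim3, which encodes a serine/threonine kinase, was at 15.1 and 14.1 TPM in the young pair and 18.8 and 17.5 TPM in the old pair. With 4 libraries in 2 groups such likeness mostly restates the size of the group difference.

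The promoters of 7 members are in RefSeq's table for GRCm38.p6, all but that of Dusp4. A TGACG core was found on either strand in 3 of the 7 windows, those of Dusp1, Dusp5 and Dusp16, and in 17.8% of all 32851 windows of that length. G and C made up 56.4% (Dusp6) to 77.2% (Dusp7) of the member windows, beside a median of 52.4% over all windows. The shares of windows with a match make no allowance for this. Dusp1 held 3 matches, beginning 191, 143 and 140 bases before the start site, and the last 2 overlap as the strands of a complete palindromic element. Dusp5 held 1, beginning 55 bases before the start. The CArG box was found in Dusp5 alone among the 7, as an adjoining pair beginning 82 and 72 bases before the start, and in 1.47% of all windows. The AP-1 site TGANTCA, the NF-kappaB site, TATAAA and CCGGAA, 1 form of the ETS site, were in 0 of the 7 windows. They were in 6.75%, 3.90%, 12.4% and 12.0% of all windows. The shorter ETS core GGAA was not searched, and it occurs in the printed Dusp5 and Dusp6 windows. The printed Dusp6 and Dusp7 windows carry none of the motifs searched, and neither do those of Dusp2 and Dusp10. The part of these motifs in the differences between groups was not tested. A match here describes the letters of the window and shows no binding.

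**Figure D4:**
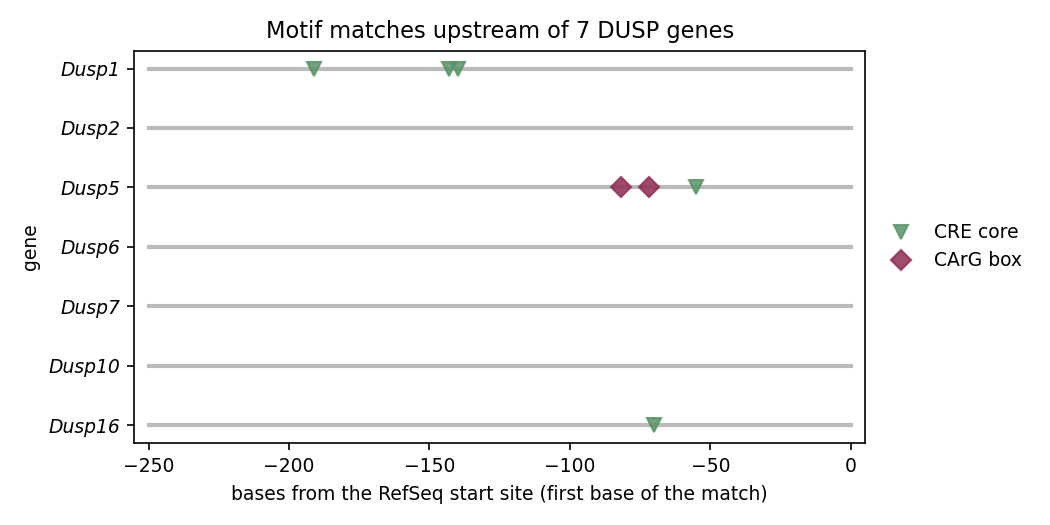
Position of matches to the TGACG core of the cAMP response element (CRE core, triangles) and to the CArG box (diamonds) in the 250 bases before the start site of 7 DUSP genes. Dusp5 carries the adjoining CArG pair at 82 and 72 bases before the start, and Dusp1 carries 3 TGACG cores.

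The 3′ untranslated regions differed in AU-rich pentamers, the sequence ATTTA in the letters of the mRNA written as DNA, which is known from unstable mRNAs. They were counted in GENCODE M21 transcripts on GRCm38, in the transcript with the longest coding sequence. Dusp1 had 4 in 690 bases and Dusp2 had 4 in 581 bases, densities of 5.80 and 6.88 per kb that 4.62% and 2.85% of 10989 tested genes reached. Dusp5 had 1 in 1109 bases and Dusp6 had 1 in 1189 bases, below the median of 1.30 per kb over tested genes, and Dusp7 had 0 in 1778 bases. Dusp4 had 2, Dusp10 had 3 and Dusp16 had 3. The part of these pentamers in the differences between groups was not tested.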

How the data were processed

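RNA was measured in 4 libraries, 2 young and 2 old, grouped by sample title. Per the labels' protocols, mRNA was captured on oligo(dT) beads and made into stranded libraries. STAR, TopHat, DESeq2 and Trim Galore, and the builds GRCm39 and mm9, appear in the submitters' processing notes with no roles, and no source used here says whether counting used strand. In GENCODE M21, Dusp1, Dusp5, Dusp10 and Dusp16 overlap genes on the other strand, and reads of Dusp1 may also be shared with overlapping pseudogenes, so their values carry that uncertainty. The deposited TPM values, computed by the authors, sum to 1000000 in each library, per the file headers and the values. The authors' deposited table of 1255 changed genes, 527 higher and 728 lower, gives log2 fold changes with standard errors, p-values and a mean normalized count signal, per the file headers. Enrichment tables were not used here.

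Genes whose mean over the 4 libraries was 1 TPM or more were compared on log2(TPM + 1), which understates changes of low genes, with limma 3.58.1 in R 4.3.3 (trended moderated variance, two-sided, Benjamini-Hochberg over all tested genes, threshold 0.05). Ratios of TPM use no pseudocount. With 2 residual degrees of freedom the spread is estimated from few values. The script was tested on simulated data. The members and lists were chosen with earlier results of these data known. Named were all members, every called gene of a list or, where none was called, the 2 with the highest mean, and the 5 genes nearest in pattern to the 2 most abundant members. A gene of the MAP kinase list that this rule names is not reported here. Dusp8, Dusp9, Araf, Spry1, Spry2, Myc, Etv5, Ccnd1, Phlda1 and Mapk14, the ratios between genes and the ATTTA counts were chosen after values were seen. Alternatives were other pseudocounts, filters, scalings and variance models, a replicate block and each library left out. Figures were drawn with matplotlib 3.10.9.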

Additional observations from a re-analysis of the deposited data

How the results depend on the processing

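With a pseudocount of 0.1 or 5, every count stayed within 1.5 times its value with a pseudocount of 1. This holds for all genes, the 8 members and the 4 lists. No member with a called difference changed sign under the other scalings. The other alternatives could not turn these signs, because the old and young libraries of these members did not overlap. With no filter on low values 33589 genes were tested in place of 16073. The calls were then 71 higher and 59 lower over all genes, and 1 and 0 for the members. They were 0 and 0 for the MAP kinase list and for the feedback inhibitors, and 1 higher for the ERK-regulated genes. Without a variance trend they were 309 and 263 over all genes, 1 and 0 for the members, and 0 and 0 for the MAP kinases and for the feedback inhibitors. With a mean of at least 5 TPM, 11416 genes were tested, and Dusp4, Dusp10, Dusp16 and Mapk12 were not among them. Then 0 MAP kinases were called higher, since Mapk12, the 1 called in the main fit, was left untested. Among the other dual-specificity phosphatases 1, Dusp3, was called lower. Median-ratio scaling gave 900 lower genes, 4 higher and 0 lower MAP kinases and 0 lower feedback inhibitors. Quantile normalization gave 1289 lower genes, 4 higher and 1 lower MAP kinases and 0 lower feedback inhibitors. Taking out immunoglobulin genes gave 1295 higher and 508 lower genes, 0 lower members, 4 higher and 0 lower MAP kinases, and 2 higher and 0 lower feedback inhibitors, and the difference of Dusp11 became 0.012. Apart from the filters, whose effect on the tested genes is given, the cause was not tested.

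The replicate numbers are shared between the groups, but nothing in the labels says that they pair animals or days. With the replicate block, 496 genes were called higher and 756 lower, 2 members higher and 0 lower, 0 and 0 MAP kinases and 0 lower feedback inhibitors. Deviations of same-numbered libraries had a correlation of -0.146 across genes, and the crossed block, chosen after seeing the data, gave 1498 higher genes, 1 lower ERK-regulated gene, 6 higher MAP kinases and 2 higher feedback inhibitors.

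Leaving out each library in turn gave 255 to 734 higher and 98 to 1766 lower genes over all genes, 1 to 3 higher and 0 to 1 lower members, 0 to 1 higher and 0 to 2 lower MAP kinases, 0 to 1 higher and 0 to 2 lower feedback inhibitors, and 1 to 3 higher ERK-regulated genes. The library left alone in its group is then assumed to vary like the other group. The depth of the libraries is unknown, so the precision of low members such as Dusp4 rests on 2 libraries a group.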
